A study of Mus musculus with 2 samples.

Results

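The genes described here were 9 transcription factors of the Zic and forkhead families, Zic1, Zic2, Zic4, Foxc1, Foxc2, Foxd1, Foxf1, Foxp1 and Foxp2. They were chosen by symbol from 32287 features, and all 9 symbols were found, each once. Expression was measured in 2 droplet single-cell RNA libraries, R1 and R2, of cells from the leptomeninges, the thin membranes on the brain surface. The tissue had been peeled off the cerebral hemispheres of adult Pdgfra-H2BGFP mice of both sexes, 3 months old, and the loading aimed for no more than 5000 cells per sample. The reporter places a nuclear fluorescent protein under Pdgfra control, and no sort on it is stated. Both libraries belonged to 1 group, so all comparisons set cell classes against each other inside these libraries (n = 2). The labels name no separate animals behind R1 and R2. The library was a block in the fits, so p-values measure only how differences between classes vary from one of these libraries to the other. That variation may be technical.

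Zic proteins are zinc finger factors related to the Gli proteins of the hedgehog pathway, and forkhead proteins bind DNA through a winged helix domain. Both families pattern the embryonic head. Zic1, Zic2 and Zic4 act in the dorsal neural tube, cerebellum and meninges, and Foxc1 is needed for the meninges to form and to signal to the cortex beneath them. Foxc2 works beside Foxc1 in mesenchyme and vessels, Foxd1 marks stromal progenitors, Foxf1 acts in endothelium and visceral mesenchyme, and Foxp1 and Foxp2 are repressors known from neurons and many other tissues.

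Several of these genes lie beside a relative in the genome (mm10). Zic1 (chr9:91358058-91365810, minus strand) and Zic4 (chr9:91362413-91389348, plus strand) overlap by 3398 bases on opposite strands. Whether counting used strand is not given in the sources used here, so reads from the shared stretch cannot be assigned with certainty. Zic2 (chr14:122475435-122479852) lies 9758 bases from Zic5, Foxf1 (chr8:121084386-121088144) lies 28027 bases from Foxc2 (chr8:121116171-121118895), and Foxc1 (chr13:31806633-31812476) lies 175230 bases from Foxf2. Foxd1 is at chr13:98354242-98359305, Foxp1 at chr6:98925338-99522721 and Foxp2 at chr6:14901349-15441977. Foxp1 overlaps Gm20705, another listed feature on its own strand, with which it may share reads.

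Promoter sequences from RefSeq (GRCm38.p6) were at hand for 5 of the 9 genes. Those of Zic1, Foxd1 and Foxc1 are shown because these genes ran together over all classes tested, although Foxd1 did not follow the others within the fibroblast-like classes (see the correlations further on). Each is the stretch before the gene's annotated start, read 5′ to 3′ on the gene's strand, with CCAAT or its reverse ATTGG, the letters of the CCAAT box, in capitals. The Zic1 stretch is chr9:91365811-91366018 on the minus strand and lies within the span of Zic4. The Foxc1 stretch is chr13:31806396-31806632 and the Foxd1 stretch chr13:98353995-98354241, both on the plus strand.
Zic1: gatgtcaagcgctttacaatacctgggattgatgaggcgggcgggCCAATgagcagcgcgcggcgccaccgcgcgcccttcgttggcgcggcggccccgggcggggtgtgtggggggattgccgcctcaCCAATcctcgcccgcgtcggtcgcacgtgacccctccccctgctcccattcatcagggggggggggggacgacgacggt
Foxc1: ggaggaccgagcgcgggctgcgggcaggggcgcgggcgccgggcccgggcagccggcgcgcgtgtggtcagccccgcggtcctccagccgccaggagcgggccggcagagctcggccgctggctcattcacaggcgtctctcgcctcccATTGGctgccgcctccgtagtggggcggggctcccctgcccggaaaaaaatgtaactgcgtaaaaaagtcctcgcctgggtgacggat
Foxd1: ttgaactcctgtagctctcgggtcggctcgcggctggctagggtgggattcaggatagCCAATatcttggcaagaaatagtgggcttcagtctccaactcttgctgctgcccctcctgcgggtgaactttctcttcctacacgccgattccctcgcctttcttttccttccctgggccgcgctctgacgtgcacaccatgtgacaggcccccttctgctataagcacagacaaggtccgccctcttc
The Zic1 stretch held 2 matches and the others 1 each, while 33.8% of 32851 promoter windows of 250 bases held at least 1. The forkhead core TGTTTAC (3.17% of windows), the Zic-type letters CCTGCTG (8.44%) and the Gli-type letters TGGGTGGTC (0.225%) were searched on both strands and had no match in the 3 printed stretches. The 250-base windows held 27 CpG in Zic1, 29 in Foxc1 and 12 in Foxd1, against a median of 6 over all windows. Zic4 ran closest to Zic1 over all classes, but its entry held no bases to print. Its window held 4 CpG and 0 CCAAT matches. The Foxp1 windows, not printed, held 11, 3 and 34 CpG and 0, 0 and 1 CCAAT matches.

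The matrices held 7276 barcodes and 14586462 UMIs (unique molecular identifiers, counts of captured transcripts) for R1, and 6743 barcodes and 12359040 UMIs for R2. After filtering, 2985 and 3035 cells remained, with medians of 1643 and 1249 UMIs, and 93 barcode sequences occurred in both libraries. Cells were clustered without the Zic, forkhead and Gli genes and classes were named from markers. Pial and perivascular-like cells (155 in R1 and 83 in R2), inner arachnoid-like cells (260 and 464), arachnoid barrier-like cells (41 and 34) and dural border-like cells (573 and 289) were the fibroblast-like layers. A further fibroblast-like cluster, F02 (341 and 629 cells), took no name. Outside the fibroblasts stood endothelial-like (328 and 320), mural-like (50 and 52), border macrophage-like (531 and 685) and microglia-like cells (187 and 96). The lists themselves named the layers, so it is no separate support that each layer's own list was highest there in both libraries. The pial list summed to 1390 and 1614 CPM (the gene's UMIs per 1e6 UMIs of the class) in pial cells and to at most 256 CPM in the other fibroblast-like classes. The dural border list summed to 4553 and 5165 CPM in dural border cells and to 2664 CPM or less in the others. The barrier list had 4860 and 3487 CPM in its own layer and 914 CPM or less in the others. The inner arachnoid list had 215354 and 245305 CPM in its own layer and still 86375 and 112795 CPM in pial cells. No cluster of the main clustering could be called astrocytes. At another clustering resolution, a cluster of 35 and 47 cells with the same leading genes as C07 did take that name. Cluster C07 (35 and 52 cells) came nearest: its astrocyte list summed to 2874 and 3654 CPM, but neuron-like cells had 6134 and 8443 CPM, neuronal genes such as Gria2 were among its leading genes, and its fibroblast list stood at 3115 and 4632 CPM. It is therefore given by number, and microglia are the glial class of the tests.

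Clusters with little Malat1, an abundant nuclear RNA, matter for what follows. In F02, 5.0% of R1 cells and 4.0% of R2 cells had at least 1% Malat1 UMIs, against 98.6% and 97.6% of dural border cells and 96.1% and 95.2% of pial cells. Inner arachnoid cells were a mixture (39.2% and 27.2%) of cluster F01, poor in Malat1, and cluster F05, rich in it. F01 was also led by the plasma cell genes Igkc, Igha and Cd79a. Both properties are given beside the results they move with.

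**Figure D1:**
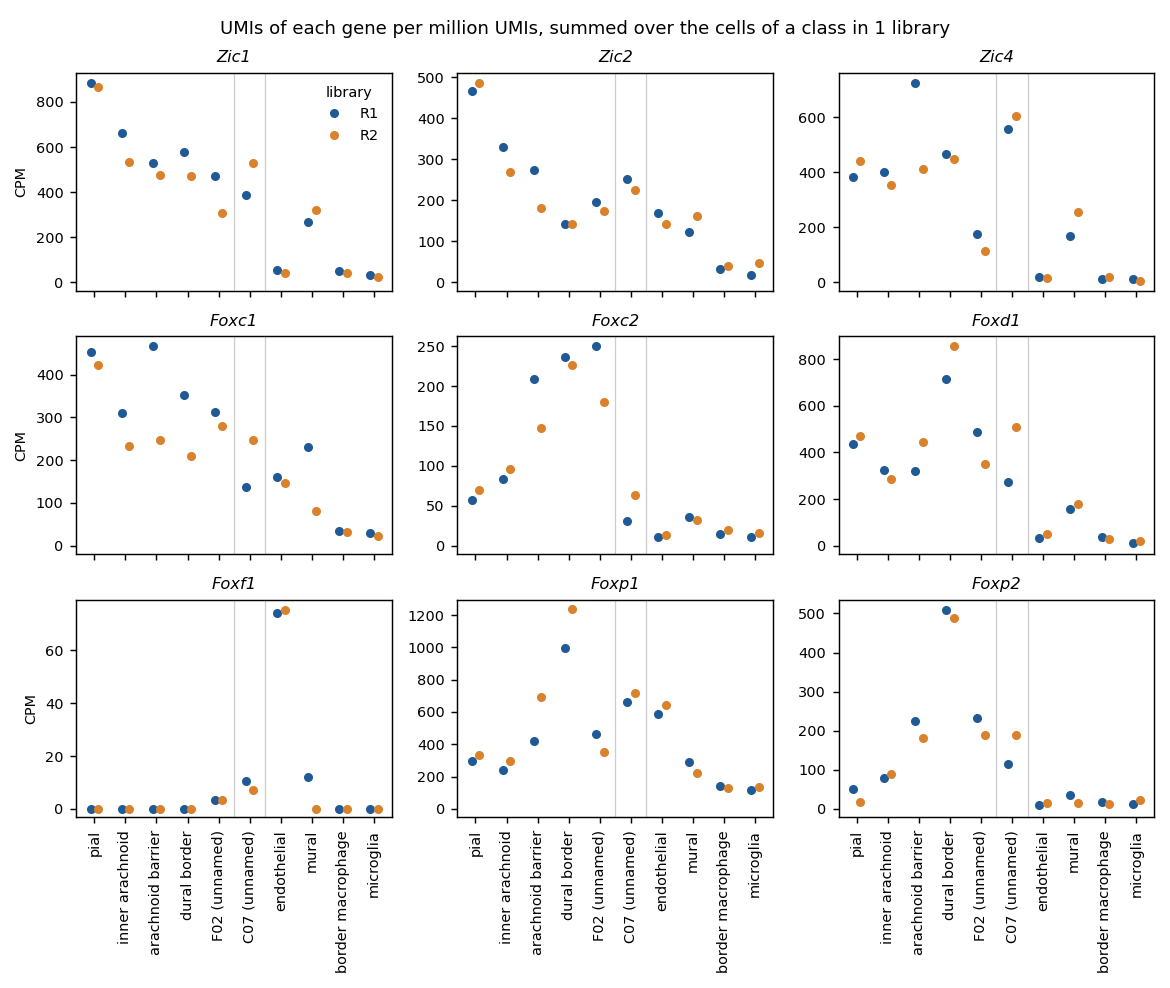
Levels in CPM (linear axis from 0) of the 9 genes, summed over all cells of a class in 1 library, with 1 point for R1 and 1 for R2. Vertical lines set the fibroblast-like classes (left) and cluster C07 (between the lines) apart from the others. Zic1 and Zic2 were highest in pial cells, Foxd1, Foxp1 and Foxp2 in dural border cells, and Foxf1 in endothelial cells.

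Orders of levels are given among 9 classes: the 4 named layers, F02, endothelial, mural, border macrophage and microglia-like cells. C07, small fibroblast-like clusters, blood cells and neuron-like cells stand outside them. Zic1 was most abundant in pial cells, at 884 CPM in R1 and 868 CPM in R2. It measured 664 and 534 CPM in inner arachnoid, 531 and 477 in barrier, 578 and 471 in dural border cells and 469 and 306 in F02. The pial values lay above those of every other class, while the ranges of inner arachnoid, dural border and barrier cells overlapped. Mural cells had 268 and 321 CPM, and endothelial cells (54.2 and 39.3 CPM) and border macrophages (50.2 and 41.2 CPM) had overlapping low values.

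Zic2 fell off more steeply between the layers. It measured 465 and 486 CPM in pial cells, 329 and 268 in inner arachnoid, 274 and 181 in barrier and 141 and 142 in dural border cells. Pial cells stood apart from all other classes, and dural border cells were the lowest layer in both libraries. Unlike Zic1, Zic2 was also read in endothelial cells, at 169 and 143 CPM, where border macrophages had 33.7 and 39.2 CPM. The lower endothelial value was just above the higher dural border value.

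Zic4 had no pial maximum. Its values were 383 and 440 CPM in pial, 400 and 353 in inner arachnoid, 467 and 450 in dural border and 724 and 411 in barrier cells, and only F02 stood well below them, at 175 and 112 CPM. Within inner arachnoid, Malat1-poor F01 had 114 and 128 CPM of Zic4 and Malat1-rich F05 had 559 and 685 CPM. Zic2 differed less, at 307 and 212 CPM in F01 and 341 and 352 CPM in F05. Zic1, Foxd1, Foxp1 and Foxp2 were also lower in F01 than in F05 in both libraries. Foxp1, for example, measured 114 and 165 CPM in F01 and 316 and 494 CPM in F05. The Foxc1 and Foxc2 values of F01 and F05 overlapped. Low Zic4 thus went with low Malat1 in F01 and F02, and the part of RNA quality in this was not tested. In C07, Zic4 measured 556 and 605 CPM and Zic1 388 and 528 CPM.

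Foxc1 was read in every fibroblast-like class. It had 452 and 422 CPM in pial, 311 and 233 in inner arachnoid, 467 and 247 in barrier, 352 and 210 in dural border cells and 312 and 280 in F02. Pial cells lay above inner arachnoid cells, dural border cells and F02 in both libraries, and the other ranges overlapped. Endothelial cells had 161 and 146 CPM, above border macrophages (35.1 and 32.7 CPM).

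Its paralog Foxc2 had another distribution. Dural border cells had 237 and 227 CPM, F02 250 and 180 and barrier cells 209 and 148, while inner arachnoid cells had 83.2 and 95.8 and pial cells 57.5 and 69.4 CPM. The first 3 classes lay above the last 2 in both libraries. In endothelial cells Foxc2 measured 10.6 and 13.1 CPM, below its border macrophage values of 14.3 and 19.6 CPM.

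Foxd1 measured 717 and 855 CPM in dural border cells, above all other classes. Pial cells had 435 and 469 CPM, F02 487 and 351, barrier cells 322 and 444 and inner arachnoid cells 323 and 288, and these ranges overlapped from one to the next. Mural cells had 158 and 177 CPM and endothelial cells 33.1 and 49.2 CPM, while C07, outside the order, had 273 and 507 CPM.

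Foxp1 was read in all 9 classes. Dural border cells had 996 and 1239 CPM, endothelial cells 587 and 644, barrier cells 418 and 691, pial cells 296 and 336 and inner arachnoid cells 244 and 298. Of the 9, dural border cells stood alone at the top and endothelial cells came next, with a range that overlapped that of barrier cells. Border macrophages (141 and 126 CPM) and microglia (118 and 135 CPM) had the lowest values of the 9. C07 had 661 and 718 CPM.

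Foxp2 had the steepest gradient among the layers. It measured 510 and 488 CPM in dural border cells, 233 and 188 in F02, 225 and 181 in barrier, 79.1 and 88.2 in inner arachnoid and 52.0 and 17.4 in pial cells. The dural border values were above all others, and pial values overlapped those of mural cells (36.5 and 16.1 CPM). Endothelial cells (10.6 and 14.8 CPM), border macrophages (17.9 and 11.8 CPM) and microglia (12.1 and 23.2 CPM) overlapped at the bottom.

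Foxf1 was the exception to the fibroblast pattern. Endothelial cells had 56 UMIs in R1 (74.0 CPM) and 46 in R2 (75.4 CPM). The 4 named layers had 0 of 4079829 UMIs over both libraries, which with a floor of 3 counts puts the endothelial level at least 101.5-fold higher. F02 had 3 UMIs, mural cells 1, and border macrophages and microglia none. Among endothelial clusters, Foxf1 measured 90.6 and 92.0 CPM in cluster C06, led by the transporter gene Slco1a4, 53.0 and 70.9 in the Ackr1-led C04 and 43.4 and 37.0 in C13, whose leading genes included Gkn3 and Bmx. C06 was highest in both libraries, and the C13 values rest on 5 and 4 UMIs.

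Pial, inner arachnoid and dural border-like cells together, without F02 and barrier cells, were compared with endothelial, mural, border macrophage and microglia-like cells together. In this and all later comparisons, classes were averaged on the log scale, so that a fold is not the ratio of mean CPM. Of the 9 genes, 8 were higher in fibroblast-like cells by edgeR's quasi-likelihood test with Benjamini-Hochberg adjustment, against 46.8% of 10796 genes called in either direction, 28.6% called higher and 18.2% lower. The largest difference was that of Zic4 (log2 fold change 3.82 ± 0.15 (SE), adjusted p = 8.72e-121), followed by Foxd1 (3.46 ± 0.14) and Zic1 (3.28 ± 0.13). Foxp2 (2.81 ± 0.24), Foxc2 (2.65 ± 0.22), Foxc1 (2.20 ± 0.13) and Zic2 (1.96 ± 0.13) followed, and Foxp1 had the smallest difference (0.98 ± 0.12, adjusted p = 1.59e-14). Foxf1, at 0 in the layers, was not called. The median over the 9 genes was 2.65 on the log2 scale and that over all genes 0.13.

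**Figure D2:**
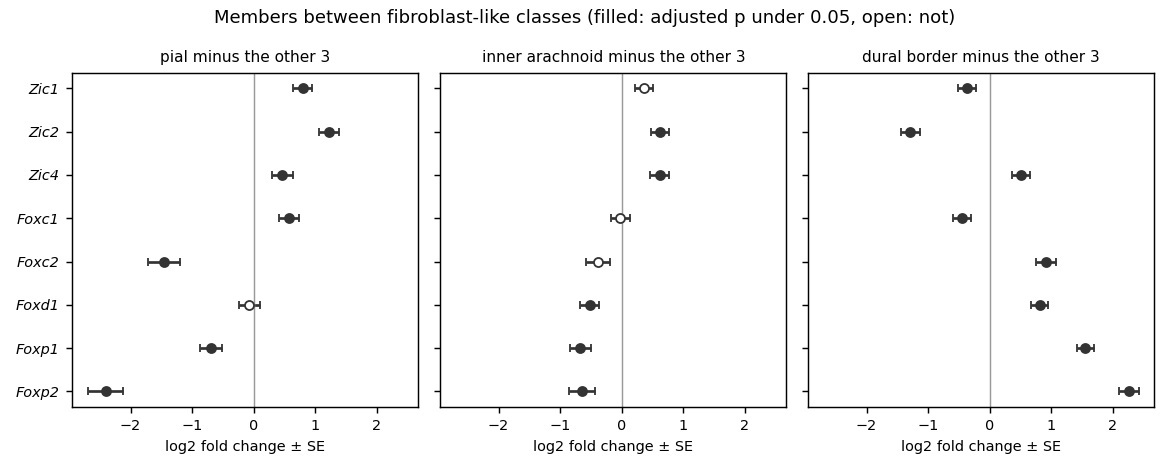
Log2 fold change with its standard error for 8 genes in pial, inner arachnoid and dural border-like cells, each compared with the 3 remaining fibroblast-like classes averaged (F02 included), from the edgeR fit over both libraries. Filled points passed an adjusted p of 0.05. Zic2 and Foxp2 take opposite sides in pial and dural border cells.

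Pial cells had more Zic and Foxc1 RNA and less Foxc2, Foxp1 and Foxp2 RNA than the other fibroblast-like classes. Of 8 tested genes (Foxf1 was too low), 4 were higher and 3 lower, where 26.9% of 8981 genes were called (14.4% higher and 12.5% lower). Zic2 rose most (log2 fold change 1.23 ± 0.16, adjusted p = 2.57e-09), then Zic1 (0.80 ± 0.15) and Foxc1 (0.58 ± 0.16). Foxp2 was lowest (-2.41 ± 0.29, adjusted p = 2.95e-10), then Foxc2 (-1.45 ± 0.26) and Foxp1 (-0.69 ± 0.18). At another clustering resolution Foxc1 (0.34, adjusted p = 0.0999) and Foxp1 (-0.27, adjusted p = 0.248) did not pass. The median over the 8 was 0.20, against -0.01 over all genes. Foxd1 did not pass (-0.07 ± 0.17, adjusted p = 0.80). Zic4 passed narrowly (0.46 ± 0.17, adjusted p = 0.0339), and not without the library block (adjusted p = 0.0612) or with DESeq2 (adjusted p = 0.0933). It also did not pass with no filter, with at least 600 genes, with at least 30 cells per class or without F01. Without F02 it was -0.05 (adjusted p = 0.906). In cells with at least 1% Malat1 UMIs, a limit that also took F02 out of the fit, it was -0.34 (adjusted p = 0.142). The mural marker list summed to 7292 and 6317 CPM in pial cells, of which Vtn alone made 7147 and 6242 CPM, while Rgs5 stood at 13.7 and 11.6 CPM and Abcc9 at 0 (5135 and 1863, and 389 and 241 CPM, in mural cells).

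Dural border cells showed the other side of this. Of 8 tested genes 5 were higher and 3 lower, where 39.6% of genes were called (22.3% higher and 17.3% lower). Foxp2 was higher by a log2 fold change of 2.26 ± 0.16 (adjusted p = 3.55e-19), Foxp1 by 1.55 ± 0.14 (adjusted p = 1.48e-14), Foxc2 by 0.92 ± 0.16 and Foxd1 by 0.82 ± 0.14. Zic2 was lower (-1.29 ± 0.16, adjusted p = 4.07e-10), and Foxc1 (-0.44 ± 0.15) and Zic1 (-0.37 ± 0.15) by less. The median over the 8 was 0.66, against 0.03 over all genes. The calls of Foxc1 and Zic1 were lost with DESeq2 (adjusted p = 0.0814 and 0.0930) and without the library block (adjusted p = 0.0729 and 0.0972). Both were also lost with no filter and with equal UMI totals. That of Zic1 was further lost at the other clustering resolution and with at least 30 cells per class. In cells with at least 1% Malat1 UMIs, a limit that also took F02 out of the fit, Zic1 was -0.83. Zic4 was called higher (0.51 ± 0.14, adjusted p = 0.00309) but was -0.01 without F02 and -0.32 in cells with at least 1% Malat1 UMIs (adjusted p = 0.978 and 0.0710). It did not pass without F01 (0.29, adjusted p = 0.110) or with at least 30 cells per class (0.32, adjusted p = 0.115). The pial and dural border comparisons share their classes, so their opposite signs are not independent.

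In inner arachnoid cells 2 Zic genes were higher and 3 forkhead genes lower than in the other fibroblast-like classes. Zic2 (0.63 ± 0.15, adjusted p = 0.00103) and Zic4 (0.62 ± 0.15) passed upward, and Foxp1 (-0.67 ± 0.16, adjusted p = 0.00217), Foxp2 (-0.65 ± 0.22) and Foxd1 (-0.52 ± 0.16) downward. These were 5 of 8 genes, where 13.4% of genes were called (8.94% higher and 4.45% lower), with a median of -0.21 against 0.08 over all genes. Without the library block Foxd1 and Foxp2 did not pass (adjusted p = 0.0566 and 0.0668). Only 2 of the 8 passed with DESeq2 (Foxp1 and Foxd1), and without F02 Zic4 was 0.06 (adjusted p = 0.852). Without cluster F01 the 3 forkhead genes no longer passed, Zic1 passed (0.57, adjusted p = 0.00269) and Zic4 was 1.24 (adjusted p = 1.77e-07).

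Barrier cells were too few for the limit of 50 cells per library and were compared only after that limit was lowered to 30, a choice made after seeing the data. None of 8 genes passed with edgeR (the only tool run here), where 9.83% of 8709 genes were called (4.99% higher and 4.83% lower), and 2 had an unadjusted p under 0.05. These were Zic4 (0.58 ± 0.23, adjusted p = 0.0933) and Foxd1 (-0.53 ± 0.25, adjusted p = 0.178). These values rest on 41 and 34 cells.

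**Figure D3:**
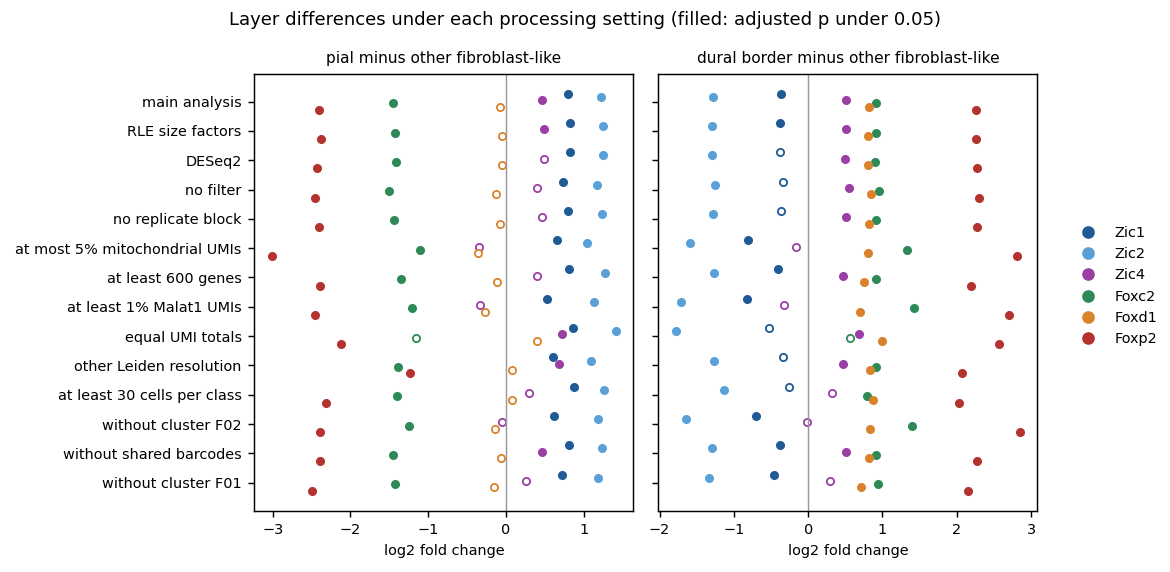
Log2 fold change of 6 genes in pial (left) and dural border-like cells (right) against the other fibroblast-like classes, under each processing setting on the vertical axis. Filled points passed an adjusted p of 0.05. Zic4 (purple) crosses 0 when F02, cells over 5% mitochondrial UMIs or cells under 1% Malat1 are left out, while Zic2 and Foxp2 keep their sides. The mitochondrial and Malat1 limits also took F02 out of the fit, as too few of its cells were left.

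Endothelial cells were compared with the mean of the 6 other classes of the first fit. Foxf1 and Foxp1 were higher and Zic1, Zic4, Foxc2, Foxd1 and Foxp2 lower, 7 of 9 genes, where 31.3% of 10796 genes were called (20.8% higher and 10.5% lower). Foxp1 was higher by a log2 fold change of 1.15 ± 0.14 (adjusted p = 2.41e-15). Foxf1 passed with edgeR (adjusted p = 9.00e-45) but not with DESeq2 (adjusted p = 0.222), and its fitted fold depends on the prior count because most other classes were at 0. The median over the 9 was -1.84, against 0.09 over all genes. The lower genes ranged from -1.84 ± 0.23 (Foxd1) to -2.68 ± 0.29 (Zic4). Zic2 (0.38 ± 0.16, adjusted p = 0.0613) and Foxc1 (0.23 ± 0.17, adjusted p = 0.332) did not pass. Zic2 passed with at most 5% mitochondrial UMIs (0.72, adjusted p = 0.00095), at least 600 genes (0.47, adjusted p = 0.0184) or equal UMI totals (1.21, adjusted p = 0.00852). The mitochondrial and gene limits also took mural cells out of the fit.

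Mural cells had intermediate levels of most of the genes. Only Zic4 passed (1.09 ± 0.32, adjusted p = 0.0121), 1 of 9 genes where 9.38% were called (6.27% higher and 3.11% lower), and 3 had an unadjusted p under 0.05. With barrier cells in the fit the value was 0.73 (adjusted p = 0.175). The Zic4 counts were 14 and 16 UMIs. Of all mural calls 66.8% were higher, against 78.5% with RLE size factors in edgeR and 89.0% with DESeq2, scalings that moved the median of all genes by 0.15 and 0.19 on the log2 scale. The fibroblast marker list summed to 1436 and 2120 CPM in mural cells, to 664 and 780 in endothelial cells and to 15681 and 14746 in pial cells, and its part in the mural Zic and Foxd1 levels was not tested.

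Microglia had less of 8 of the 9 genes than the mean of the other classes of the first fit, where 40.4% of genes were called (21.6% higher and 18.8% lower). Their differences ranged from -1.35 ± 0.20 for Foxp1 (adjusted p = 6.54e-11) to -3.40 ± 0.36 for Zic4 (adjusted p = 2.36e-19). Foxf1, at 0, was not called. The median over the 9 was -2.34, against -0.04 over all genes. Their Zic1 values were 34.7 and 23.2 CPM and their Foxd1 values 12.1 and 19.3 CPM. Microglia were not below each single class. Their ranges overlapped those of border macrophages for Zic2, Zic4, Foxc2, Foxp1 and Foxp2, and lay below them for Zic1, Foxc1 and Foxd1. Mean Foxp2 was 17.7 CPM in microglia, 14.9 in border macrophages and 12.7 in endothelial cells.

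The size of a called difference could vary between libraries: the Zic4 difference in microglia was -2.78 in R1 and -4.27 in R2, and that of Foxp2 in pial cells -1.98 and -3.35. Both R2 values rest on few counts. Microglia had 8 Zic4 UMIs in R1 and 1 in R2, and pial cells of R2 had 17.4 CPM of Foxp2 in a sum of 172862 UMIs.

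**Figure D4:**
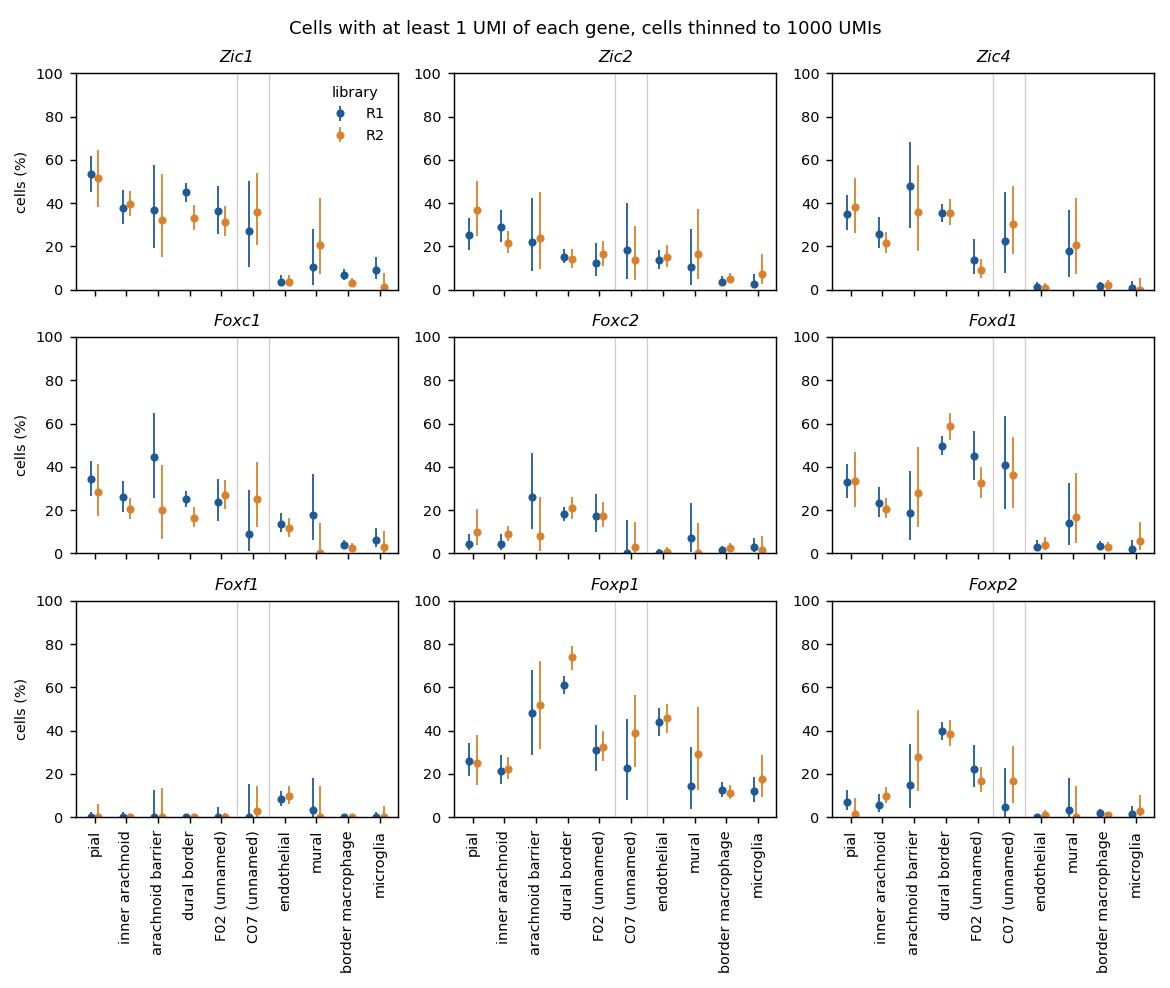
Percentage of cells with at least 1 UMI of each gene after every cell was thinned to 1000 UMIs, by class and library, with exact 95% binomial intervals that cover counting error only. Vertical lines are as in the plot of levels. Foxp1 reached 61.1% and 73.9% of dural border cells, and Foxf1 was seen in endothelial cells at 8.2% and 9.8%.

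Detection in individual cells was compared at an equal depth of 1000 UMIs, leaving out shallower cells. Zic1 was found in 53.5% (95% interval 45.0 to 61.9%) of 142 pial cells of R1 and 51.7% (38.4 to 64.8%) of 60 of R2. In border macrophages, which should lack it, the shares were 6.6% of 378 and 3.1% of 420 cells, and in endothelial cells 3.5% and 3.6%. Unthinned, pial cells held a median of 2174 UMIs in R1 and 1727 in R2, and border macrophages 1453 and 1203. The endothelial Zic1 share was within the range of the macrophage shares and is not read as expression. Zic1 levels differed among endothelial clusters (0 and 10.1 CPM in C04, 72.9 and 59.2 in C06) and among macrophage clusters (27.3 and 23.3 in C02, 94.3 and 70.2 in C05).

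Foxp2 was found in 39.8% (35.6 to 44.1%) and 38.6% (32.7 to 44.8%) of dural border cells, against 1.9% and 1.0% of border macrophages. Foxd1 was found in 49.7% and 58.7% of dural border cells, against 3.4% and 3.1%. Before thinning, at median depths of 2368 and 2158 UMIs, Foxp2 was found in 65.1% and 63.7% of them and Foxd1 in 74.7% and 78.5%. Zic2 in endothelial cells reached 13.7% (9.8 to 18.6%) and 15.1% (10.7 to 20.5%), above the 3.7% and 5.0% of border macrophages, and Foxc1 reached 13.7% and 11.6% against 3.7% and 2.6%. Median depths of endothelial cells were 1569 and 1428 UMIs. Foxf1 was in 21 of 255 and 22 of 225 endothelial cells (8.2% and 9.8%) and in 0 of 525 and 0 of 264 dural border cells, which by the floor of 3 counts allows shares of cells with a UMI of up to 0.571% and 1.14% (exact 95% upper limits 0.70% and 1.39%). At least 1 of the 9 genes, with Foxf1 left out of this count, was found in 98.3% and 98.5% of dural border and 88.7% and 93.3% of pial cells. The shares were 59.6% and 63.1% of endothelial cells and 28.3% and 25.2% of border macrophages.

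Over the 16 sums of 8 classes in 2 libraries, log2 levels of Zic1 ran closest to those of Zic4 (Pearson's r = 0.98) and Foxd1 (0.95), and r of Zic1 and Foxc1 was 0.86. Over the 8 sums of the 4 fibroblast-like classes these were 0.74, 0.00685 and 0.69, so that Zic1 and Foxd1 did not run together there. Over the same 8, Zic2 went against Foxc2 (r = -0.95) and Foxp2 (r = -0.96), and Foxc2 went with Foxp2 (r = 0.90). These are descriptions, since the sums share libraries and class depth, and the contrast between fibroblasts and other cells sets most of the first. Of 7741 other genes, those most like Zic1 were Eya1 (0.98), Pcolce and Fgfr1, and most like Zic2 Ptn (0.96), Steap3 and Plxna2. Zic4 was most like Rgma (0.97), Eya1 and Ltbp3, Foxc1 like Pkd2 (0.97), Tgfbr3 and Bgn, and Foxc2 like Igfbp6 (0.98), Nt5e and Smoc1. Foxd1 was most like Fzd2 (0.98), Col16a1 and Gas1, Foxp1 like Hmcn1 (0.95), Hs3st1 and Pik3ip1, and Foxp2 like Thsd4 (0.97), Slc23a2 and Col25a1. Foxf1 was most like Tmem252 (0.97), Cldn5 and Grrp1.

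**Figure D5:**
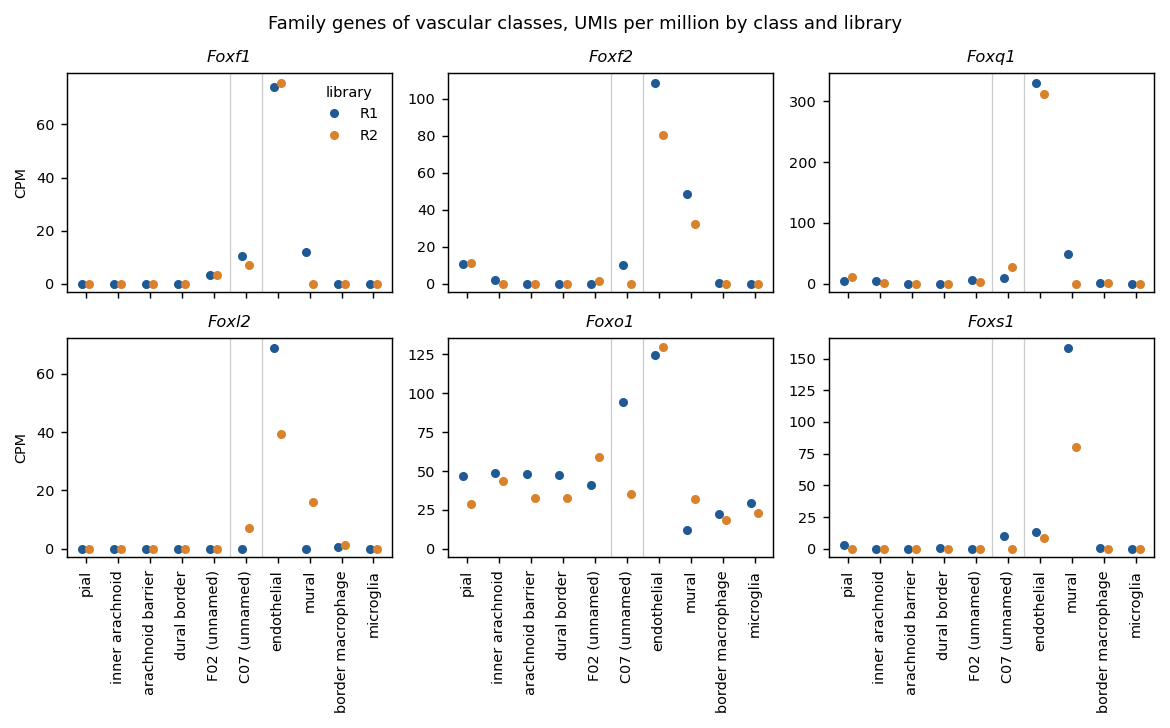
CPM (linear axis from 0) of Foxf1 and 5 relatives by class, with 1 point per library. Foxf1, Foxf2, Foxq1, Foxl2 and Foxo1 peak in endothelial cells and Foxs1 in mural cells.

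Of 46 other Zic, forkhead and Gli-family genes, 21 were abundant enough for the first fit, and 9 differed in endothelial cells, 8 of them higher. Of all 10796 genes tested, 31.3% were called in endothelial cells (20.8% higher and 10.5% lower). Foxq1 measured 329 and 312 CPM there (adjusted p = 3.42e-151) and at most 48.7 CPM in any other class of that fit. It overlaps A530084C06Rik on the opposite strand, so some of its reads could belong to that gene. Foxf2, a relative of Foxf1 that acts in brain vessels, measured 108 and 80.3 CPM in endothelial and 48.7 and 32.1 CPM in mural cells. It was called higher in both. Mural sums held only 82182 and 62277 UMIs, where 1 UMI made 12.2 and 16.1 CPM, so the mural Foxf2 values rest on few counts. Foxl2 had 68.8 and 39.3 CPM in endothelial cells (adjusted p = 2.63e-30). Foxo1, a target of insulin signalling, was higher there as well (log2 fold change 2.02 ± 0.21). Foxs1 was at 158 and 80.3 CPM in mural cells (adjusted p = 7.40e-14). Foxs1, Foxf2 and Foxq1 were the 3 of 21 called higher in mural cells (6.27% of all genes), and Foxn3 the 1 called lower (3.11%). Foxq1 was read there in R1 alone (48.7 CPM, against 0 in R2), also on few counts. The endothelial marker list summed to 2847 CPM in mural cells of R1 and 434 CPM in R2 (Cldn5 925 and 32.1, Pecam1 195 and 0), and its part in the Foxq1 and Foxf2 calls was not tested.

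In fibroblast-like cells 7 of the 21 were higher and 1 lower, where 28.6% of 10796 genes were called higher and 18.2% lower. Zic5, the neighbour of Zic2, was higher by 2.92 ± 0.23 (adjusted p = 6.82e-33), Foxp4 by 3.63 ± 0.30 and Glis2 by 2.38 ± 0.30. Between the layers few passed. Of 13 tested, 2 were higher in dural border cells, Foxp4 (0.90 ± 0.20, adjusted p = 0.000168) and Gli1 (1.09 ± 0.33, adjusted p = 0.00667), a read-out of hedgehog signalling. In these cells 22.3% of 8981 genes were called higher and 17.3% lower. Pial cells had 1 lower, Foxn3 (-0.83 ± 0.25), and inner arachnoid cells had none with edgeR, 1 having an unadjusted p under 0.05. Of all genes, 26.9% were called in pial and 13.4% in inner arachnoid cells. In microglia Foxn3 was higher (1.11 ± 0.18, adjusted p = 8.24e-09), and Zic5, Glis2 and Foxp4 were 3 of the 21 that were lower. Of all genes, 21.6% were called higher in microglia and 18.8% lower.

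Signals that meningeal Foxc1 is tied to in the embryo were also read. Aldh1a1 and Aldh1a2 make retinoic acid, Cxcl12 is a chemokine, and Bmp4 and Bmp7 are bone morphogenetic proteins. Aldh1a1, Cxcl12, Bmp4 and Bmp7 were higher in fibroblast-like than in other cells, where 28.6% of 10796 genes were called higher and 18.2% lower. Aldh1a2 was called higher as well, which is no result for the reason given below. In pial cells, where Foxc1 was higher, Cxcl12 (1021 and 908 CPM, log2 fold change 2.12 ± 0.14), Aldh1a1 (1.94 ± 0.24) and Bmp7 (0.82 ± 0.17) were higher and Bmp4 lower (-1.33 ± 0.21). In dural border cells Bmp4 was higher (1.29 ± 0.14) and Aldh1a1 (-1.86 ± 0.24), Bmp7 (-1.65 ± 0.17) and Cxcl12 (-1.01 ± 0.15) lower. Aldh1a2 is one of the markers that named inner arachnoid cells, so its differences in that layer (2.5 ± 0.16) and in any comparison that holds it, such as pial (2.01 ± 0.19) and dural border cells (-3.44 ± 0.23), are no result. Bmp7 was higher in inner arachnoid cells (1.85 ± 0.14, adjusted p = 6.47e-17). Cxcl12 was also higher in endothelial cells (3.37 ± 0.13), at 1879 and 1202 CPM.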

How the data were processed

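For each of 2 libraries the authors deposited a matrix of unnormalized UMI counts. Per the file headers it came from Cell Ranger 4.0.0, on genome build mm10 per the submitters' processing notes. The deposited feature and barcode lists (unit: other, per the file headers) give gene symbols and cell barcodes in the order of the matrix. Further upstream settings are not given in the sources used here.

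Barcodes needed 400 genes or more and no more than 10% of UMIs from mitochondrial genes. Under these filters 1314 and 1369 barcodes fell below the gene limit and 3631 and 2905 above the mitochondrial limit. Scrublet called 3 doublets in each library (0.100% and 0.0987%), which is too few for a working caller, so doublets were in effect not removed. Cells were clustered with scanpy 1.11.5 (2000 variable genes without the Zic, forkhead, Gli, signal and sex genes, 30 components, Leiden resolution 1 and, for fibroblast-like cells, 0.8). Clusters were named from marker lists. The 9 genes and all lists were chosen with earlier results of these data known.

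Counts were summed per class and library where both libraries gave 50 or more cells of the class. Sums were fitted with edgeR 4.0.16 (quasi-likelihood, TMM, R 4.3.3), with the library as a block and Benjamini-Hochberg adjustment at 0.05 over all genes tested. The first fit held 7 classes (6 residual degrees of freedom) and the second 4 fibroblast-like classes (3 residual degrees of freedom). The fits were tested on simulated data. Arachnoid barrier-like cells fell under the limit. Other clusterings were tried to see whether that class would be larger, and the first was kept. The classes of a library come from 1 suspension, which pairs them. Across genes, the R1 minus R2 differences of 2 classes had a median Pearson's r of 0.0657 in the first fit and 0.135 in the second. Shares of cells carry exact Clopper-Pearson 95% intervals, which, like floors of 3 counts, cover counting error only. DESeq2 1.42.0 was an alternative.

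The text names the 9 genes, 5 signal genes, up to 10 relatives that passed in a comparison with at least 20 CPM in their highest class, the neighbours in the genome, and for each of the 9 the 3 genes of highest correlation of log2(CPM + 1) among those with a mean of at least 20 CPM. Gli1 falls outside this rule and was named after its values were seen, as 1 of 2 relatives called in dural border cells. Of these relatives 1 is not reported here. Gene positions are from GENCODE M21.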

Additional observations from a re-analysis of the deposited data

Results flagged for a closer look

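The filters left out 4291 barcodes of R1 (6957334 UMIs) and 3708 of R2 (6088899 UMIs), and all 9 genes were read in them above the level that 3 counts would give. As means of both libraries, Zic1 stood at 139.5 CPM, Zic2 at 61.8, Zic4 at 53.3, Foxc1 at 86.3, Foxc2 at 45.5, Foxd1 at 105.2, Foxf1 at 0.842, Foxp1 at 147.2 and Foxp2 at 56.9 CPM. In the kept cells Zic1 measured 252 and 215 CPM and Foxf1 7.73 and 7.81 CPM. These barcodes have no class here and enter no comparison.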

How the results depend on the processing

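Of 683 values of the 9 genes under alternative settings, 605 kept their direction and side of the threshold, 52 lost a call, 5 gained one and 21 changed sign. The cause of these changes was not tested, except where a setting itself thins counts or removes cells.

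Counts of genes called fell most with equal UMI totals, which thins every class sum and leaves 2486 of 10796 genes to test in the first fit and 1659 of 8981 in the second, so that the counts cannot be read as a loss of calls among tested genes: 1242 in fibroblast-like cells (5055 in the main analysis), 535 in pial (2419), 164 in inner arachnoid (1203), 461 in dural border (3558), 648 in endothelial (3375), 466 in mural (1013) and 992 in microglia-like cells (4365). For pial, inner arachnoid and dural border cells in turn, the counts were 1361, 530 and 1653 of 8981 genes with DESeq2. They were 951, 649 and 1700 of 6092 with at most 5% mitochondrial UMIs, and 1170, 775 and 1950 of 6940 with at least 1% Malat1 UMIs. Both limits also took F02 out of the fit. Pial cells had 1290 of 9103 without cluster F02, and dural border cells 2228 of 8709 with at least 30 cells per class. In inner arachnoid cells the count rose without F01, to 1957 of 7415.

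Of the 9 genes, 5 were called in inner arachnoid cells in the main analysis. That fell to 2 with DESeq2, with at most 5% mitochondrial UMIs, with at least 1% Malat1 UMIs, with equal UMI totals and without F02, and to 3 with at least 30 cells per class and without F01. The mitochondrial and Malat1 limits also took F02 out of the fit. Dural border cells had 5 of 8 called with edgeR and equal UMI totals, where all 8 were called in the main analysis. Those lost were Zic1 (adjusted p = 0.139), Foxc1 (adjusted p = 0.162) and Foxc2 (adjusted p = 0.296). In pial cells Foxc2 (adjusted p = 0.0738) and Foxp1 (adjusted p = 0.160) were lost with equal totals. Mural cells had 0 called with edgeR and at least 30 cells per class (1 in the main analysis).

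Signs changed as follows. Zic4 in pial cells was -0.35 with at most 5% mitochondrial UMIs, -0.34 with at least 1% Malat1 UMIs and -0.0545 without F02. In dural border cells it was -0.17, -0.32 and -0.0102 in turn. The mitochondrial and Malat1 limits also took F02 out of this fit, so all of these settings lack it. Foxd1 in pial cells, not called, was 0.41 with equal totals and 0.0830 at the other clustering resolution and 0.0842 with at least 30 cells. In inner arachnoid cells Foxc1 was 0.0527 with equal totals and 0.10 at the other resolution, and Foxp2 was 0.20 with at most 5% mitochondrial UMIs. Foxc1 in endothelial cells was -0.16 with at least 1% Malat1 UMIs, which took mural cells and microglia out of the fit, and -0.27 with equal totals. In mural cells Zic2 was 0.0173 with RLE size factors, 0.0175 with DESeq2, 0.30 with equal totals and 0.0133 without shared barcodes, and Foxc1 was -0.0699 with no filter, -0.15 with at least 30 cells and -0.0498 without shared barcodes.

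Without the replicate block, which pairs classes by library, no count of all genes called moved by over 1.5 times. Of the 9 genes, 3 instead of 5 were called in inner arachnoid cells, 6 instead of 8 in dural border cells and 6 instead of 7 in pial cells, and the numbers called in the other comparisons were equal.

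Leaving out a library leaves 1 sum per class, so these are values with no test, and counts of calls have none. From the lone libraries Zic2 in pial cells ranged from 1.12 to 1.32, Foxp2 in pial cells from -3.35 to -1.98 and Zic4 in pial cells from 0.23 to 0.70. The Foxp2 value of -3.35, from R2, rests on few counts. Mural and barrier-like sums rest on the fewest cells of the classes tested.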
